A study of Mus musculus with 18 samples.

Results

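The Schlafen genes (Slfn) were followed in vascular endothelial cells (ECs), which form the inner lining of vessels, of normal and tumor-bearing mouse mammary tissue after injection of cGAMP. The compound, given as the 3′3′ isomer in the methods of the study, is a cyclic dinucleotide used as an agonist of STING, a protein of cytosolic DNA sensing. Members were the rows of the expression table whose gene symbol was Slfn followed by a number. The rule found 4 genes of 16248, namely Slfn3, Slfn4, Slfn5 and Slfn9. Another 4 genes of the GENCODE M21 annotation fit the same rule, Slfn1, Slfn2, Slfn8 and Slfn14, and were not analysed here. ECs came from female FVB mice, from wild-type mammary fat pad (normal ECs), from spontaneous tumors of MMTV-PyMT animals (MMTV-PyMT ECs) and from implanted tumors (implanted ECs). The MMTV promoter drives the PyMT viral oncogene mainly in mammary epithelium, and implanted tumors were grown in the fat pad of FVB mice from cultured MMTV-PyMT tumor cells placed in Matrigel. Each tissue was injected directly with phosphate-buffered saline (PBS) or cGAMP and collected 3 hours later, and cells were sorted as alive, CD31-positive and CD45-negative. The 6 groups held 3 bulk RNA-seq libraries each, 18 in all. The labels give no ages, while the methods of the study place implantation and the start of MMTV-PyMT treatment in young adult mice. The study states 3 mice for each group without saying which library came from which experiment, so p-values measure the spread between these libraries.

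Schlafen proteins share a core domain that binds nucleic acids, and several members cleave transfer RNA. Many family genes are induced by type I interferon, the antiviral cytokine that STING signaling produces, and the family is known for restricting growth of immune cells and replication of viruses. Mouse members form short, intermediate and long classes. Slfn3 and Slfn4 belong to the intermediate class, while Slfn5 and Slfn9 belong to the long class, which carries a helicase-like region. Slfn4 is best known from myeloid cells, Slfn3 from T cells and gut epithelium, and Slfn5 as an interferon-induced nuclear protein. The function of Slfn9 is little described.

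The 4 genes lie in 1 cluster on mouse chromosome 11. In GENCODE M21 on GRCm38, Slfn5 (ENSMUSG00000054404.13) spans chr11:82951349-82964840 on the plus strand and Slfn9 (ENSMUSG00000069793.12) spans chr11:82978390-82991830 on the minus strand. Slfn4 (ENSMUSG00000000204.16) spans chr11:83175186-83190216 and Slfn3 (ENSMUSG00000018986.10) spans chr11:83191330-83215154, both on the plus strand. All 8 annotated genes of the rule fall within 335.4 kb.

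The 250 bases before the start site of each gene are shown because the letters of the interferon-stimulated response element (ISRE), the DNA motif bound by interferon-activated transcription factors, separate the 4 genes. Sequences are RefSeq, GRCm38.p6, and read 5′ to 3′ on the strand of the gene. Capitals mark an ISRE match, searched on both strands as TTTC, any 2 bases and TTTC again (GAAA, any 2 bases and GAAA in reverse), from 250 bases before to 50 bases after the start site. The windows shown are chr11:82951852-82952101 on the plus strand for Slfn5, chr11:82991831-82992080 on the minus strand for Slfn9, chr11:83174936-83175185 on the plus strand for Slfn4 and chr11:83191080-83191329 on the plus strand for Slfn3.
Slfn5: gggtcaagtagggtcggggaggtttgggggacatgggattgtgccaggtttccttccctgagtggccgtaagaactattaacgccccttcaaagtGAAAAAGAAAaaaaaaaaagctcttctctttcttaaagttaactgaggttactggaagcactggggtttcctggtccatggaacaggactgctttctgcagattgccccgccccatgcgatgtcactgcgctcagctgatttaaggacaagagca
Slfn9: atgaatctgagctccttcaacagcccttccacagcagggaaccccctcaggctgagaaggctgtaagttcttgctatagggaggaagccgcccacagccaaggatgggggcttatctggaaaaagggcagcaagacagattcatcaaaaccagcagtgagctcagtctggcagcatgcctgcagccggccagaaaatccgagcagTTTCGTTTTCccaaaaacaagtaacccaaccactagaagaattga
Slfn4: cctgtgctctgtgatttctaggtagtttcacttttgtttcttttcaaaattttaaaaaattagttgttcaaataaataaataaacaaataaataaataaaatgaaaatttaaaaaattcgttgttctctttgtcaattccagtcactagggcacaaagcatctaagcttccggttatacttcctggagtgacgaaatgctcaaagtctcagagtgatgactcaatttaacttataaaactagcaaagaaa
Slfn3: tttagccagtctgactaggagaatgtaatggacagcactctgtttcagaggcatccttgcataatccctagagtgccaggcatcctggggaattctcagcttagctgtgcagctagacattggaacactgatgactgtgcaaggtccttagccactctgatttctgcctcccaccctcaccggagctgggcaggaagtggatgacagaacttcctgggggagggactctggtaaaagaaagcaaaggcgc
The Slfn5 window held the reverse letters GAAAAAGAAA from -155 to -146, and the Slfn9 window held TTTCGTTTTC from -45 to -36, both counted from the start site. With no mismatch allowed, the windows of Slfn4 and Slfn3 held no ISRE match, and near matches were not counted. The RefSeq start of Slfn5 lies inside its GENCODE span, downstream of the annotated gene start. Of 32851 mouse windows of this length, 1131 (3.44%) held a match. The letters of the gamma-activated site (TTCNNNGAA), present in 8.3% of windows, were in none of the 4. A match describes letters and not a bound site.

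Libraries held 9184556 to 12200414 reads, recovered from the deposited FPKM (fragments per kilobase of exon, divided by a factor per library). Depth differed by 1.33-fold at most. The factor did not follow the recovered reads. It was 0.7351 to 0.8295 of them in implanted cGAMP libraries and 1.0813 to 1.1537 of them in normal libraries. A lower factor gives a higher FPKM for the same share of reads. All 10 endothelial markers, Pecam1 and Cdh5 among them, were in the table, and their summed FPKM lay between 850 and 2158. The group means of this sum were 1280 (normal), 932 (MMTV-PyMT) and 1458 (implanted) under PBS and 1165, 1110 and 1678 after cGAMP. The 3 leukocyte markers, Ptprc (the CD45 gene that the sort selected against) among them, set 2 libraries apart from the rest of their groups. Their summed FPKM was 62.1 in implanted cGAMP library 2 against 11.7 and 9.58 in the rest of that group. In normal cGAMP library 1 it was 56.1 against 5.39 and 5.13. Normal PBS libraries, with 23.4, 13.2 and 39, were kept in every fit that left out these 2 libraries. Without normal cGAMP library 1, normal ECs thus had more leukocyte markers under PBS than after cGAMP. The 7 myeloid markers in the table of 10 summed to 352 in implanted cGAMP library 2 and to 66.2 to 156 in every other library. Most limma results of the members and most list counts that rest on these libraries are given with and then without them. The fit without them was chosen after seeing the data. Ratios of means, ranks, group shares, voom results and similar profiles are given with all libraries only. In bulk libraries, fewer expressing cells and less RNA per cell cannot be told apart.

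Of the 4 Schlafen genes analysed, Slfn5 had the highest FPKM in every library. Under PBS its FPKM was 31.7, 34.3 and 38.5 in normal ECs, 14.4, 12.3 and 9.78 in those of MMTV-PyMT tumors and 15.9, 18.6 and 17.6 in implanted ECs. After cGAMP it was 91.2, 76.3 and 71.2 in normal ECs, 34, 63 and 54.3 in MMTV-PyMT ECs and 168, 101 and 131 in those of implanted tumors. Every cGAMP library lay above every PBS library of its tissue. The order of group means changed with treatment, since normal ECs had the highest level under PBS and implanted ECs the highest after cGAMP. From low to high, the means were 12.2 ± 2.3 in MMTV-PyMT PBS, 17.4 ± 1.35 in implanted PBS, 34.8 ± 3.4 in normal PBS, 50.4 ± 14.9 in MMTV-PyMT cGAMP, 79.6 ± 10.4 in normal cGAMP and 133 ± 33.9 in implanted cGAMP (SD, n = 3 each). Values overlapped between neighbors in this order only for normal PBS and MMTV-PyMT cGAMP. In cGAMP libraries 1, 2 and 3 the endothelial markers summed to 2158, 1297 and 1580 FPKM in implanted ECs and to 927, 1272 and 1133 in MMTV-PyMT ECs. Slfn5 followed the order of these sums in both groups. In normal cGAMP libraries the sums were 1084, 1167 and 1244, opposite to the order of Slfn5. The part of endothelial content in the Slfn5 differences was not tested. An antisense gene, Slfn5os, shares 559 of 6326 exon bases (8.84%) with Slfn5, and whether counting used strand was not stated.

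Slfn9, the second long-class gene, was low under PBS and high after cGAMP in all 3 tissues. Under PBS its FPKM was 2.17, 2.53 and 1.75 in normal ECs, 2.61, 3.57 and 2.47 in MMTV-PyMT ECs and 4.59, 4.39 and 3.55 in those of implanted tumors. After cGAMP it was 18, 21.3 and 11.6 in normal ECs, 15.2, 21 and 19.9 in MMTV-PyMT ECs and 38.9, 32.4 and 36.6 in those of implanted tumors. Groups of the 2 treatments did not overlap in any tissue. The group means ran from 2.15 ± 0.392 in normal PBS, 2.88 ± 0.6 in MMTV-PyMT PBS and 4.18 ± 0.556 in implanted PBS to 17 ± 4.92 in normal cGAMP, 18.7 ± 3.05 in MMTV-PyMT cGAMP and 36 ± 3.28 in implanted cGAMP (SD, n = 3 each). Normal and MMTV-PyMT values overlapped under either treatment, as did MMTV-PyMT and implanted values under PBS. Of the 75-base windows of Slfn9 transcripts, 5.9% were also found in transcripts of other genes, mainly Slfn10-ps and Slfn8, so reads in these stretches are uncertain.

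Slfn4, an intermediate-class gene, was barely present in normal and MMTV-PyMT ECs under PBS. Its FPKM there was 0.214, 0.149 and 0.279 in normal ECs and 0.133, 0.14 and 0.0993 in MMTV-PyMT ECs, from 5 to 12 reads a library. In implanted ECs under PBS it was 1.08, 0.741 and 1.02, above every library of the other two tissues under PBS. After cGAMP it was 1.41, 1.75 and 1.21 in normal ECs, 1.42, 3.53 and 2.14 in MMTV-PyMT ECs and 16.1, 16.2 and 11.8 in those of implanted tumors. Means ran upward in the order MMTV-PyMT PBS (0.124 ± 0.0217), normal PBS (0.214 ± 0.0652), implanted PBS (0.947 ± 0.181), normal cGAMP (1.46 ± 0.274), MMTV-PyMT cGAMP (2.36 ± 1.07) and implanted cGAMP (14.7 ± 2.53; SD, n = 3 each). Only normal and MMTV-PyMT cGAMP values overlapped with their neighbor in this order. The 3 libraries with the highest Slfn4 were thus all implanted cGAMP libraries. The library of that group with 62.1 FPKM of leukocyte markers had 16.2 FPKM of Slfn4, and the one with 11.7 FPKM of them had 16.1.

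Slfn3, the other intermediate-class gene, stayed below 1 FPKM in all 18 libraries. Under PBS its FPKM was 0.115, 0.186 and 0.0861 in normal ECs, 0.0256, 0.047 and 0.02 in MMTV-PyMT ECs and 0.118, 0.0863 and 0.0429 in those of implanted tumors, from 3 to 26 reads. After cGAMP it was 0.667, 0.445 and 0.344 in normal ECs, 0.243, 0.331 and 0.387 in MMTV-PyMT ECs and 0.558, 0.444 and 0.486 in those of implanted tumors, from 31 to 90 reads. Every cGAMP library again exceeded every PBS library of its tissue, while the 3 tissues overlapped after cGAMP except for MMTV-PyMT against implanted ECs. The deposited values imply a gene length of 11778 bases for Slfn3 against 3411 in GENCODE M21, so its FPKM is not comparable with that of the other members.

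**Figure D1:**
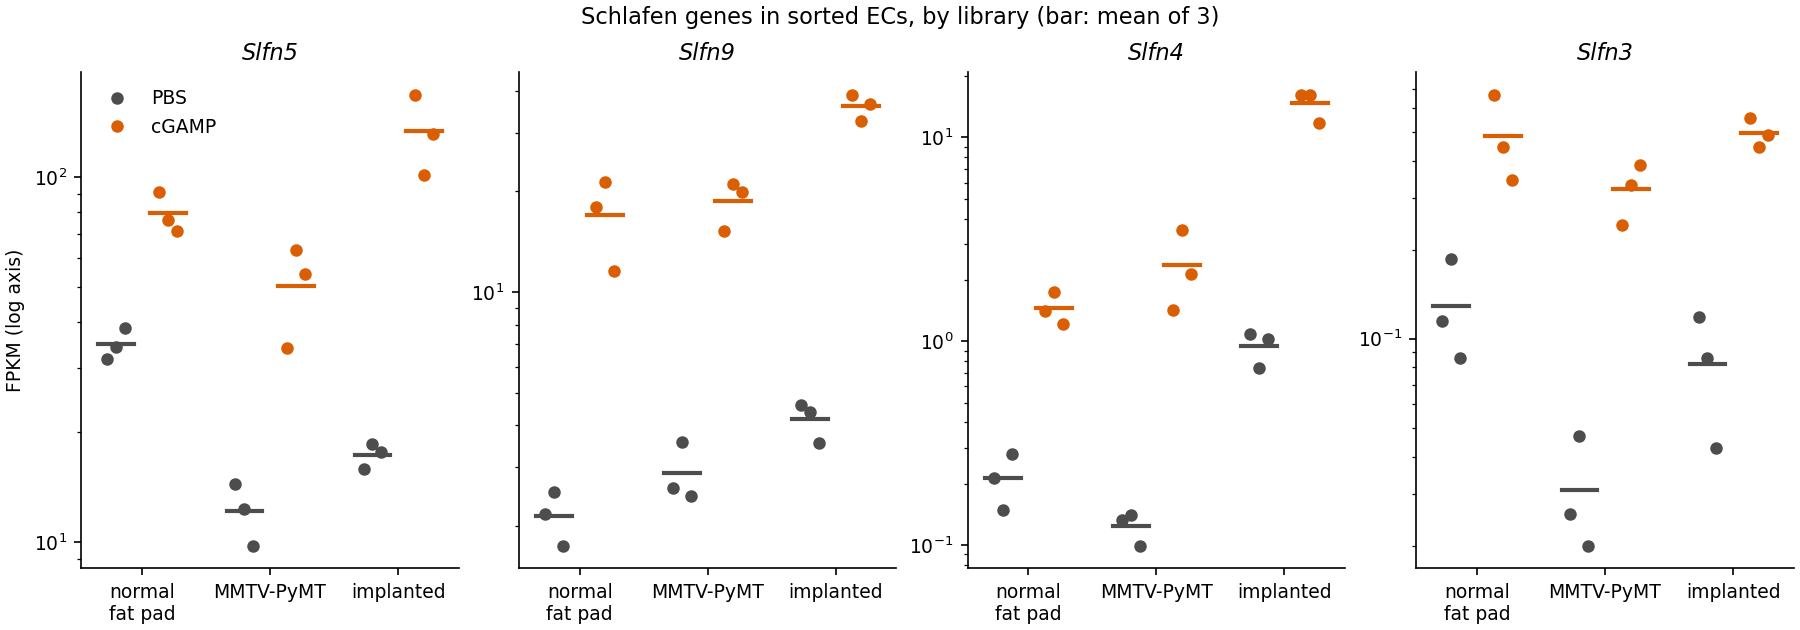
FPKM of each Schlafen gene (log axis, a separate range per gene) in the 18 EC libraries, by tissue, with PBS in grey, cGAMP in orange and bars for the mean of 3 libraries. All cGAMP points sit above the PBS points of their tissue in each panel, and the 3 implanted cGAMP points are the highest for Slfn5, Slfn9 and Slfn4.

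All 4 genes were thus separated by treatment in all 3 tissues. Among all 16248 genes, 20.7% in normal ECs, 13.9% in MMTV-PyMT ECs and 20.9% in those of implanted tumors had every cGAMP library above every PBS library, and 5.89% had this in each of the 3 tissues. The ratio of mean FPKM, cGAMP over PBS, was 2.29 (normal ECs), 4.15 (MMTV-PyMT) and 7.68 (implanted) for Slfn5. For Slfn9 it was 7.89, 6.48 and 8.62 in the same order. For Slfn4 it was 6.8, 19.1 and 15.5, and for Slfn3 it was 3.76, 10.4 and 6.02. The most abundant gene had the smallest ratio in normal and MMTV-PyMT ECs.

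The change with cGAMP was tested with limma on log2(FPKM + 1) over 13983 genes that reached 1 FPKM in at least 3 libraries, with Benjamini-Hochberg adjustment over all of them. Slfn5, Slfn9 and Slfn4 entered this test, and Slfn3 did not. Slfn4 entered only through its values in implanted ECs and after cGAMP, so that a count over the tested members carries no weight of its own. The added 1 understates the change of low genes such as Slfn4. Slfn5 rose by 1.17 ± 0.21 (log2 change ± SE) in normal ECs, with an adjusted p of 0.000522 by limma. In MMTV-PyMT ECs its log2 change was 1.94 (limma adjusted p = 5.14e-06), and in implanted ECs it was 2.84 (limma adjusted p = 2.04e-08). Slfn9 rose by 2.48 (normal), 2.34 (MMTV-PyMT) and 2.84 (implanted), with limma adjusted p of 8.46e-08, 1.17e-07 and 5.7e-09. Slfn4 rose by 1.01, 1.53 and 3.00, with limma adjusted p of 0.00053, 1.51e-05 and 2.43e-09. All 3 tested genes were therefore past the test and at least 2-fold higher in every tissue, a call made for 3.02% of all tested genes in normal ECs, 2.49% in MMTV-PyMT ECs, 6.13% in implanted ECs and 1.55% (217 genes) in each of the 3 tissues. Ranked by change among 13983 genes, Slfn9, Slfn5 and Slfn4 held ranks 49, 311 and 423 in normal ECs and ranks 92, 124 and 185 in MMTV-PyMT ECs. In implanted ECs, Slfn4, Slfn5 and Slfn9 held ranks 53, 67 and 68.

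Without the 2 libraries rich in leukocyte markers, the changes were of similar size. Leaving out implanted cGAMP library 2 gave 2.93 for Slfn4, 3.03 for Slfn5 and 2.91 for Slfn9 in implanted ECs. Leaving out normal cGAMP library 1 gave 1.02, 1.07 and 2.42 in normal ECs. Each of these values passed the limma test.

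On the reads recovered from the FPKM, voom with no filter on low values gave Slfn3 a log2 change of 1.89 ± 0.35 (SE) in normal ECs, with an adjusted p of 0.000515. Its change was 3.30 ± 0.50 in MMTV-PyMT ECs and 2.64 ± 0.42 in those of implanted tumors (voom adjusted p = 0.000138 and 7.07e-05). This fit, chosen after seeing that Slfn3 was below the filter, adds no FPKM and so gave Slfn4 larger changes of 2.74 (normal), 4.05 (MMTV-PyMT) and 3.93 (implanted). Slfn5, which is far above the added 1, changed by 1.19, 2.02 and 2.91 on this scale.

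**Figure D2:**
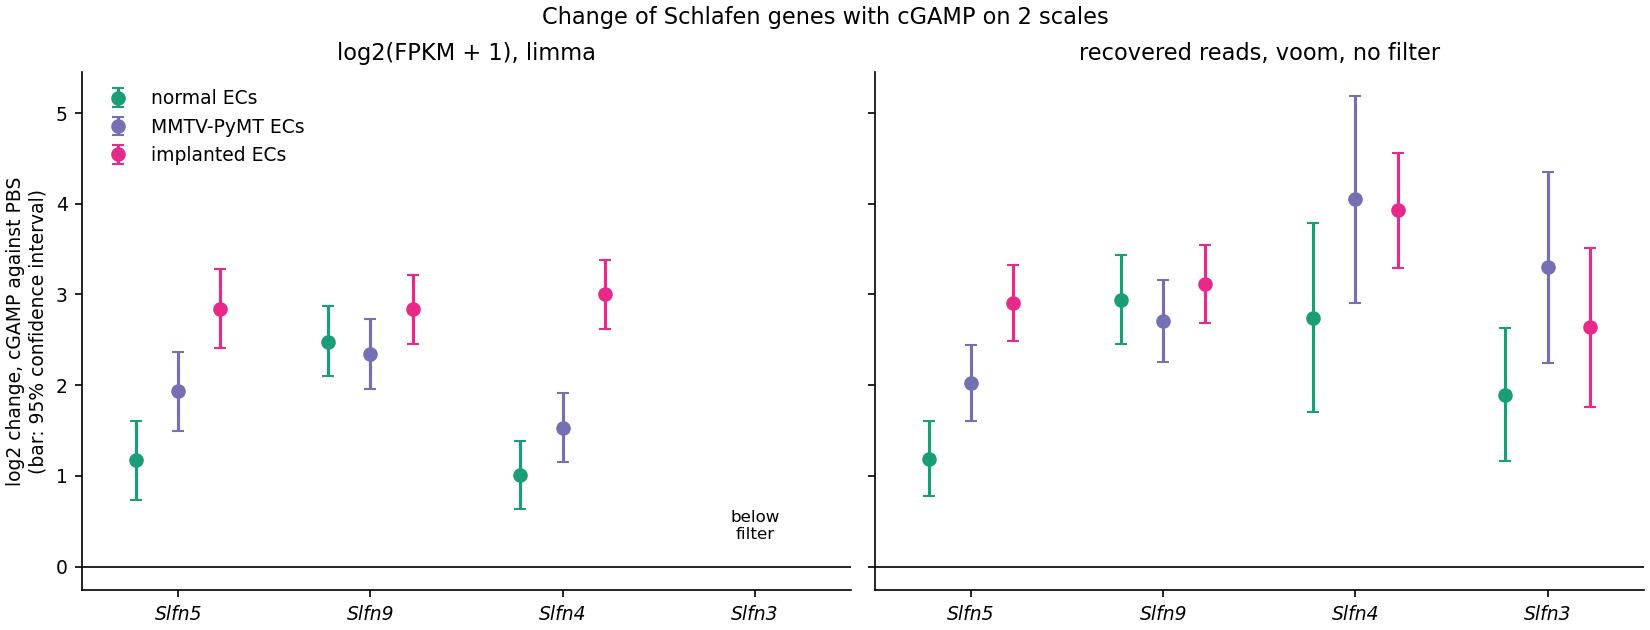
Log2 change with cGAMP (points) and its 95% confidence interval (bars) for each Schlafen gene in normal, MMTV-PyMT and implanted ECs, on log2(FPKM + 1) at left and on recovered reads at right. Slfn5 steps up from normal to MMTV-PyMT to implanted ECs on both scales, Slfn9 is level, and Slfn4 is 1.53 at left and 4.05 at right in MMTV-PyMT ECs.

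Whether the effect of cGAMP depended on the tissue was tested as the difference of log2 changes. The effect on Slfn5 was larger in implanted than in normal ECs by 1.68 ± 0.29 (SE; limma adjusted p = 0.000861). Without both libraries rich in leukocyte markers, it was 1.96 (limma adjusted p = 0.000446). A difference in this direction was past the test for 12.5% of all tested genes. Its effect in MMTV-PyMT ECs lay between, 0.77 above that in normal ECs (95% interval 0.15 to 1.39, limma adjusted p = 0.114) and 0.91 below that in implanted ECs (0.29 to 1.52, limma adjusted p = 0.0562). Both calls changed when single libraries were left out. Without MMTV-PyMT cGAMP library 1, whose Slfn5 was the lowest of its group, the first was 1.03 with a limma adjusted p of 0.0175. The second was past the limma test without implanted cGAMP library 2 (1.09), MMTV-PyMT cGAMP library 2 (1.09) or MMTV-PyMT PBS library 3 (1.04). With quantile normalization the second was 0.42 (limma adjusted p = 0.369), and it passed in only 6 of 30 settings. For scale, a larger effect in MMTV-PyMT than in normal ECs was past the test for 5.48% of genes, and a larger one in implanted than in MMTV-PyMT ECs for 7.34%.

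Slfn9 gave no difference of effect past the test. Its differences were -0.14 for MMTV-PyMT minus normal ECs (95% interval -0.68 to 0.41), 0.36 for implanted minus normal ECs (-0.19 to 0.90) and 0.50 for implanted minus MMTV-PyMT ECs (-0.05 to 1.04), with limma adjusted p of 0.792, 0.362 and 0.249. The intervals reach up to 0.90 and 1.04 in the comparisons with implanted ECs. When both leukocyte-rich libraries were left out, the 2 comparisons with implanted ECs gave 0.49 and 0.57 (limma adjusted p = 0.273 and 0.221). With 5 added to the FPKM, the difference of 0.56 between implanted and normal ECs passed the test (limma adjusted p = 0.0458).

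For Slfn4 the answer turned on the scale. On log2(FPKM + 1) its effect in implanted ECs exceeded that in normal ECs by 1.99 ± 0.25 (SE; limma adjusted p = 7.03e-05) and that in MMTV-PyMT ECs by 1.47 (limma adjusted p = 0.00142). Without both libraries rich in leukocyte markers, these differences were 1.91 (limma adjusted p = 0.000523) and 1.40 (limma adjusted p = 0.00494). On recovered reads with no filter the first difference was 1.19 (voom adjusted p = 0.193) and the second was -0.12 (95% interval -1.43 to 1.18, voom adjusted p = 0.941). With 0.1 in place of 1 added to the FPKM, the second was 0.45 (limma adjusted p = 0.539). In FPKM, Slfn4 rose from 0.947 to 14.7 in implanted ECs and from 0.124 to 2.36 in MMTV-PyMT ECs, ratios of 15.5 and 19.1. Its effect in MMTV-PyMT minus normal ECs was 0.52 (95% interval -0.01 to 1.06, limma adjusted p = 0.219), and 0.74 with a limma adjusted p of 0.048 without MMTV-PyMT cGAMP library 1. Slfn3 had no difference of effect past the voom test, the widest being 1.41 (95% interval 0.13 to 2.69, voom adjusted p = 0.183) for MMTV-PyMT minus normal ECs.

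**Figure D3:**
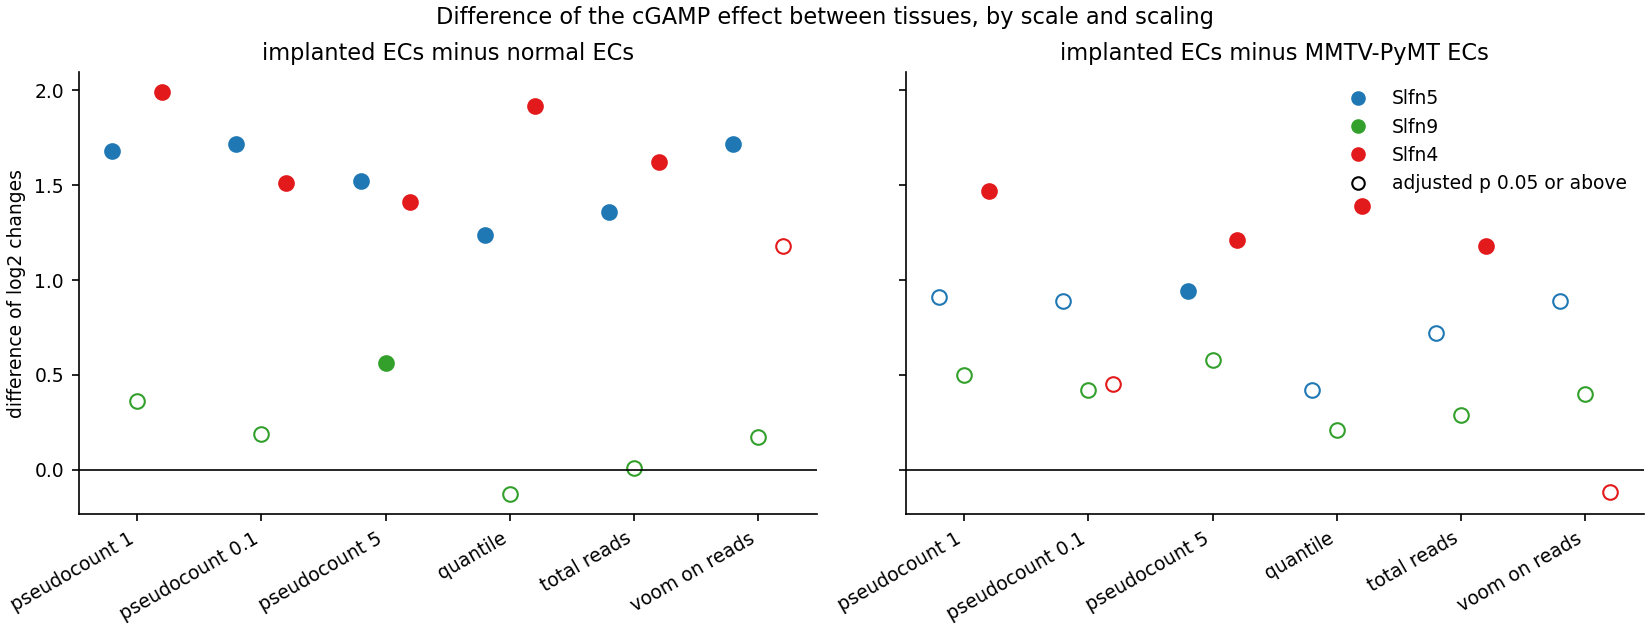
Difference of the log2 change with cGAMP between tissues for Slfn5, Slfn9 and Slfn4 under 6 ways of scaling or transforming the same libraries (filled: adjusted p under 0.05). Slfn5 stays between 1.24 and 1.72 for implanted minus normal ECs, while Slfn4 runs from 1.47 to -0.12 for implanted minus MMTV-PyMT ECs.

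Under PBS the tissues themselves differed in Schlafen levels. Slfn5 was lower in tumor ECs, by -1.46 on the log2 scale in MMTV-PyMT against normal ECs (limma adjusted p = 2.17e-05) and by -0.96 in implanted against normal ECs (limma adjusted p = 0.00105). Lower values were past the test for 26.6% and 23.6% of genes in these 2 comparisons. Slfn9 was higher in implanted than in normal ECs by 0.72 (limma adjusted p = 0.00376), and Slfn4 by 0.68 (limma adjusted p = 0.00493), where 25% of genes were past the test in this direction. With 5 added to the FPKM, the Slfn4 difference was 0.19 (limma adjusted p = 0.0975), and on recovered reads with no filter it was 2.13 (voom adjusted p = 0.00291). Slfn4 was also higher in implanted than in MMTV-PyMT ECs by 0.79 (limma adjusted p = 0.00206; 20.8% of genes past the test), and by 0.21 with 5 added (limma adjusted p = 0.0656). The same comparison gave Slfn5 0.49 (limma adjusted p = 0.0609) and Slfn9 0.42 (limma adjusted p = 0.0703), both near the threshold. Between MMTV-PyMT and normal ECs, Slfn9 (0.30) and Slfn4 (-0.11) did not pass, with limma adjusted p of 0.172 and 0.622. Slfn3, on recovered reads, was lower in MMTV-PyMT than in normal ECs by -1.99 ± 0.54 (SE; voom adjusted p = 0.00442). Markers of other cells also differed between the PBS tissues. Mural and fibroblast markers summed to 890 (normal), 341 (MMTV-PyMT) and 394 (implanted) FPKM, highest in the tissue with the most Slfn5, and epithelial markers to 356, 876 and 421 FPKM. Their part in the PBS differences was not tested.

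After cGAMP, implanted ECs had the highest level of each tested gene. Against normal ECs, Slfn4 was higher by 2.67, Slfn9 by 1.08 and Slfn5 by 0.71 (limma adjusted p = 6.24e-09, 0.000103 and 0.00742), where 31.3% of genes were past the test in this direction. Against MMTV-PyMT ECs the differences were 2.26 for Slfn4, 1.40 for Slfn5 and 0.92 for Slfn9 (limma adjusted p = 8.86e-08, 4.2e-05 and 0.000593), where 26% of genes were past it. Without both libraries rich in leukocyte markers, the differences from normal ECs were 2.59 for Slfn4 and 1.21 for Slfn9, that of Slfn5 passed as well (limma adjusted p = 0.00231), and those from MMTV-PyMT ECs were 2.19, 0.99 and 1.58 (Slfn4, Slfn9, Slfn5), all past the limma test. Scaling by total recovered reads moved the median of all genes in implanted against normal ECs by -0.36, from 0.04 to -0.33. Slfn5 was then 0.22 higher (limma adjusted p = 0.315) and Slfn9 0.60 (limma adjusted p = 0.00669). Quantile normalization gave 0.13 for Slfn5 (limma adjusted p = 0.593). Slfn5 stayed lower in MMTV-PyMT than in normal ECs, by -0.69 (limma adjusted p = 0.0111; 22.1% of genes past the test), by -0.58 without the leukocyte-rich normal cGAMP library 1 (limma adjusted p = 0.0496), and by -0.43 without MMTV-PyMT cGAMP library 1 (limma adjusted p = 0.0717). Slfn4 (0.41) and Slfn9 (0.16) did not pass in that comparison, with limma adjusted p of 0.0648 and 0.479. Without MMTV-PyMT cGAMP library 1 Slfn4 was 0.63 higher and did pass (limma adjusted p = 0.00677).

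Among the 4 genes analysed, the mean share of Slfn5 fell after cGAMP, with values apart in normal and MMTV-PyMT ECs only. Slfn5 made up 93.3% ± 1.34 (SD, n = 3) of the summed FPKM of the 4 genes in normal ECs under PBS and 80.9% ± 4.07 after cGAMP. Its share went from 79.8% ± 3.67 to 69.8% ± 2.62 in MMTV-PyMT ECs and from 76.9% ± 3.13 to 71.7% ± 4.06 in implanted ECs. Only in implanted ECs did the shares of the 2 treatments overlap. Slfn9 took 5.82% of the sum in normal ECs under PBS and 17.1% after cGAMP, 19.1% and 26.6% in MMTV-PyMT ECs, and 18.5% and 19.8% in implanted ECs. Slfn4 reached 8.19% ± 2.28 (SD, n = 3) in implanted cGAMP libraries against 1.48% in normal and 3.2% in MMTV-PyMT cGAMP libraries. Of the implanted cGAMP libraries, the leukocyte-rich library 2 held the largest Slfn4 share at 10.8%, and the others held 7.2% and 6.56%. The summed FPKM itself rose from 37.3 to 98.5 in normal, from 15.2 to 71.8 in MMTV-PyMT and from 22.6 to 185 in implanted ECs. Slfn3 held 0.201% to 0.484% of the sum as a group mean, a share that its long gene model lowers.

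**Figure D4:**
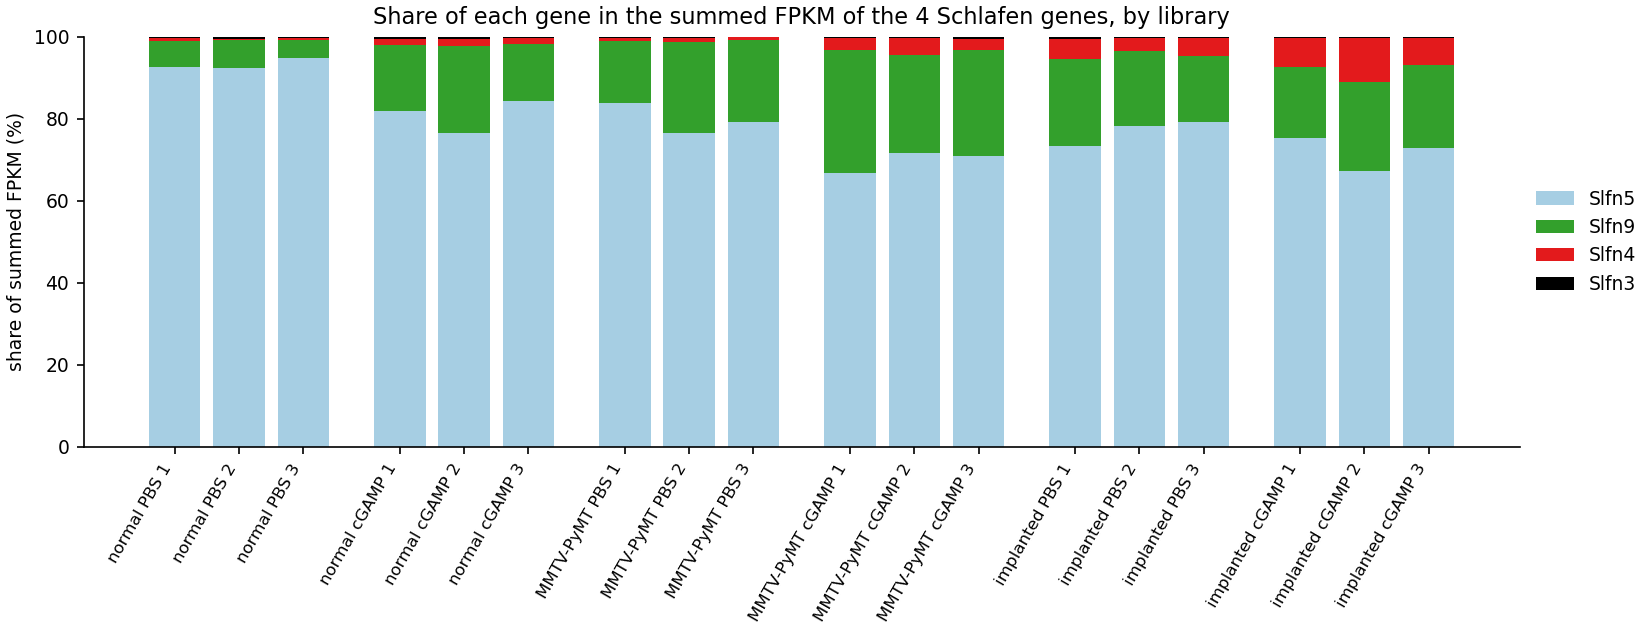
Share (%) of each Schlafen gene in the summed FPKM of the 4 genes, 1 stacked bar per library, in 6 groups of 3. Slfn5 holds at least 92.3% of each normal PBS bar and between 66.8% and 84.4% of every cGAMP bar, and Slfn4 is visible chiefly in the implanted libraries.

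Genes around the cluster did not move as the Schlafen genes did, with 1 exception. Of 18 other protein-coding genes within 300 kb of the cluster, 15 were in the table and 12 were tested. Ccl5, a chemokine gene induced by interferon and viral infection that lies 579.2 kb from the start of Slfn5, rose by 3.83 (normal ECs), 5.68 (MMTV-PyMT) and 4.91 (implanted) (limma adjusted p = 4.24e-09, 1.58e-11 and 9.67e-11). The other 11 had changes from -1.15 to 0.40. In normal ECs, Nle1 rose by 0.35, and Rad51d, Ap2b1, 1700020L24Rik and Mmp28 fell by 0.38, 0.28, 0.99 and 1.15 on the log2 scale. In implanted ECs, Lig3, a DNA ligase gene, fell by 0.52 (limma adjusted p = 0.0211). The remaining neighbors, Zfp830, Rffl, Unc45b, Taf15 and the chemokine gene Ccl9, passed in no tissue, and their changes lay between -0.32 and 0.40. Fndc8 and Rasl10b were among those below the filter, and Cct6b, Gas2l2 and Heatr9 were not analysed here.

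**Figure D5:**
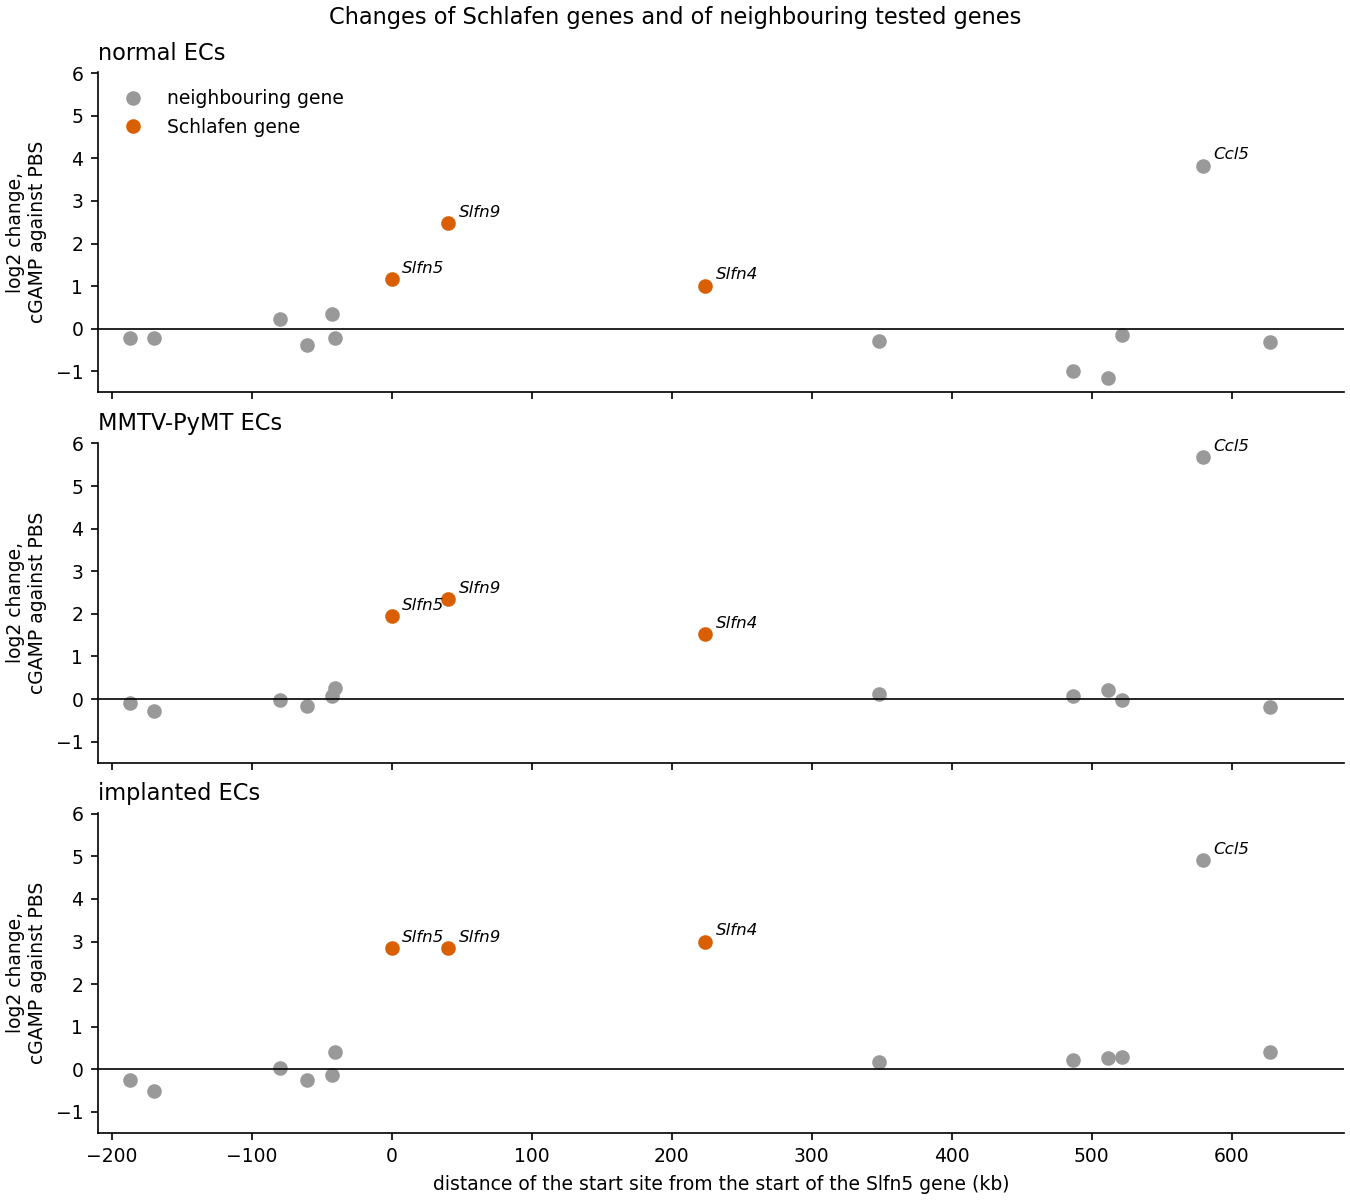
Log2 change with cGAMP of the 3 tested Schlafen genes (orange) and 12 neighboring genes (grey) against the distance of their start sites from the start of Slfn5 (kb), 1 panel per tissue. The Schlafen genes lie between 1.01 and 3.00 and Ccl5 between 3.83 and 5.68, while the other neighbors stay between -1.15 and 0.40.

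Genes with the most similar profile were found for each tested member by the root mean square difference of mean-centered log2(FPKM + 1) over the 18 libraries, a description in which all points share libraries. Ifi211 (0.221), Parp10 (0.270) and Arel1 (0.279) were nearest to Slfn4. Ifi211, an interferon-inducible gene, had means of 0.0804, 0.22 and 1.16 FPKM under PBS (normal, MMTV-PyMT, implanted), and 2.21, 3.16 and 15.9 after cGAMP. Nearest to Slfn5 were 9930111J21Rik2 (0.234), Sp100 (0.320) and Gm20559 (0.338). Sp100, a nuclear body protein gene, had 14.7, 3.32 and 9.83 FPKM under PBS in the same tissues and 26.8, 18.3 and 64.8 after cGAMP, with the PBS level highest in normal ECs as for Slfn5. Nearest to Slfn9 were Eif2ak2 (0.233), A930037H05Rik (0.255) and Setdb2 (0.297). Eif2ak2 encodes the double-stranded RNA-activated kinase PKR, and its FPKM was 8.18, 9.85 and 13.2 under PBS and 36.7, 45.7 and 82.5 after cGAMP. Between Schlafen genes the difference was 0.655 for Slfn4 and Slfn9, 0.722 for Slfn5 and Slfn9 and 0.790 for Slfn4 and Slfn5. The genes named above were picked as the nearest of all tested genes outside the family, so smaller values were built into their choice.

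The wider interferon response gives the setting for these changes. All 10 interferon-stimulated reference genes rose in MMTV-PyMT and implanted ECs and 9 of 10 in normal ECs, with median log2 changes of 4.96, 4.35 and 4.21, against medians of -0.037, -0.014 and -0.045 over all tested genes. A change past the test in this direction was seen in 7.42%, 20.3% and 13.7% of genes in MMTV-PyMT, implanted and normal ECs. Isg15, a ubiquitin-like modifier, rose by 4.68 (normal ECs), 5.46 (MMTV-PyMT) and 4.15 (implanted), and Usp18, which removes it, by 4.03, 4.75 and 4.56. The antiviral GTPase genes Mx1 (4.04, 4.91 and 5.69) and Mx2 (4.39, 5.01 and 4.11) rose in all 3 tissues as well. Bst2, a tether of budding viruses, was the exception at 0.34 in normal ECs (limma adjusted p = 0.24). Some reference genes changed about as little as the Schlafen genes, among them Oas1a (1.40, 1.72 and 2.33) and Ifi44 (1.56, 2.33 and 2.38). Without both libraries rich in leukocyte markers, the reference genes that rose numbered 9 (normal ECs), 9 (MMTV-PyMT) and 10 (implanted) of 10.

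Of 10 genes of the type I interferon pathway, normal ECs had 6 that rose and 3 that fell (median 0.72), MMTV-PyMT ECs had 6 that rose (median 0.92), and implanted ECs had 7 and 1 (median 0.77). Among all tested genes, the share that fell was 18.2% (normal ECs), 4.57% (MMTV-PyMT) and 18.8% (implanted), beside the 13.7%, 7.42% and 20.3% that rose. The pathway counts without the 2 leukocyte-rich libraries were 5 and 2, 6 and 0, and 7 and 1 in the same order. The receptor gene Ifnar1 fell by 0.32 in normal and 0.42 in implanted ECs and was at -0.03 in MMTV-PyMT ECs, where Ifnar2 rose by 0.40 (limma adjusted p = 0.00384). In implanted ECs Ifnar2 rose by 0.34, and in normal ECs it was at 0.10. Among the receptor kinases, Jak1 rose by 0.29 in normal and 0.79 in implanted ECs, and Tyk2 fell by 0.83 in normal ECs, with 0.10 and 0.03 in the MMTV-PyMT and implanted tissues. Against normal ECs, the effect was larger for 4 of these genes in MMTV-PyMT ECs, and larger for 2 and smaller for 1 in implanted ECs (3 and 1 without the same 2 libraries). Over all genes the effect was larger for 5.48% and smaller for 2.9% in MMTV-PyMT ECs, and larger for 12.5% and smaller for 6.09% in implanted ECs. Irf3, a transcription factor that STING signaling activates, fell by 0.55 in normal ECs (limma adjusted p = 0.00663).

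Genes of tRNA cleavage and protection had small changes. Of 7 such genes in the table, 3 rose in normal ECs and 3 in implanted ECs, with medians of 0.18 and 0.21, where 13.7% and 20.3% of all genes rose. With the leukocyte-rich libraries left out, 2 rose in normal ECs (13.1% of all genes). Implanted ECs then had 1 higher (20.9% of all genes) and 1 lower (19.3%). For MMTV-PyMT ECs limma called 0 of 7, with 1 at an unadjusted p under 0.05 and a median of -0.04. Rnh1, an inhibitor of ribonucleases, rose by 0.35 in normal and 0.32 in implanted ECs and was at -0.04 in MMTV-PyMT ECs. Zc3h12a, which encodes the ribonuclease Regnase-1, rose by 0.65 in normal and 0.58 in implanted ECs and was at 0.47 in MMTV-PyMT ECs. Elac2, which trims tRNA ends, was between -0.35 and 0.18, and the tRNA methyltransferase genes Trdmt1 and Nsun2 lay between -0.19 and 0.21, with none past the test.

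Growth arrest, for which the family was named, was followed through 10 genes, and their directions were mixed. Counts of genes that rose and fell were 1 and 5 in normal ECs (median -0.43), 3 and 5 in MMTV-PyMT ECs (median -0.20) and 4 and 3 in implanted ECs (median -0.04). Leaving out both leukocyte-rich libraries gave 1 and 5, 3 and 4, and 4 and 3. Over all genes, 13.7% (normal ECs), 7.42% (MMTV-PyMT) and 20.3% (implanted) rose, while 18.2%, 4.57% and 18.8% fell. Cdkn1a, which encodes the cell cycle inhibitor p21, rose by 1.10 (normal ECs), 1.39 (MMTV-PyMT) and 2.28 (implanted). The antiproliferative gene Btg2 fell by 1.15, 1.01 and 0.71, and its relative Tob1 by 0.59, 1.02 and 1.18. Klf2, an EC transcription factor gene tied to quiescence, fell by 0.71 in normal ECs but rose by 0.94 in MMTV-PyMT and 0.65 in implanted ECs. Klf4 fell by 0.55 in normal ECs, rose by 0.90 in implanted ECs and was at 0.13 in MMTV-PyMT ECs. Foxo1 fell by 0.40 in MMTV-PyMT ECs, and Foxo3 fell by 0.45 in MMTV-PyMT and 0.88 in implanted ECs.

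Markers of other cells that a CD31 sort could carry were read beside Slfn4, a gene best known from myeloid cells. The 7 myeloid markers summed to 78.1 (normal), 94.6 (MMTV-PyMT) and 137 (implanted) FPKM under PBS and to 92.8, 134 and 205 after cGAMP. Much of each sum was Cd14, and the other 6 markers summed to 37.3, 25.7 and 49.4 FPKM under PBS and to 30.5, 24.5 and 114 after cGAMP. Within implanted cGAMP libraries 1, 2 and 3 the myeloid sum was 122, 352 and 142 while Slfn4 was 16.1, 16.2 and 11.8 FPKM. Implanted PBS libraries 1, 2 and 3 had myeloid sums of 139, 116 and 156 with Slfn4 at 1.08, 0.741 and 1.02. Of the myeloid list, 1 of 7 genes rose in each tissue, against 13.7%, 7.42% and 20.3% of all genes. It was Cd14 in normal (0.58) and MMTV-PyMT ECs (0.65) and Cd68, a macrophage gene, in implanted ECs (0.75). Without both libraries rich in leukocyte markers, 2 myeloid markers rose and 3 fell in normal ECs, where 13.1% of all genes rose and 17% fell. The median over the list in implanted ECs was then 0.04 instead of 0.75. In the same fit all 3 leukocyte markers fell in normal ECs (median -1.53), where the PBS libraries held 13.2 to 39 FPKM of them. Their effect in implanted minus normal ECs was larger for 3 of 3 (median 1.90), as for 13.3% of all genes. With all libraries limma called 0 of 3 in that difference, with 1 at an unadjusted p under 0.05. Leukocyte markers summed to 2.93 to 5.06 FPKM in MMTV-PyMT PBS and 3.02 to 3.39 in MMTV-PyMT cGAMP libraries, where Slfn4 went from 0.124 to 2.36 FPKM. Only 2 of 6 T and NK cell markers and 1 of 4 B cell markers were in the table, and their sums lay between 0.396 and 34.4 and between 0.127 and 9.35 FPKM. After cGAMP, mural and fibroblast markers summed to 807 (normal), 364 (MMTV-PyMT) and 626 (implanted) FPKM, and epithelial markers to 380, 711 and 410 FPKM. The part of other cells in the tissue differences was not tested.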

How the data were processed

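Sorted ECs of 6 groups with 3 libraries each were sequenced as paired ends from a directional kit. Per the labels and the methods of the study, the authors checked reads with FastQC, aligned them to mm10 with STAR 2.7 and counted them with HTSeq. The authors deposited 1 table of FPKM for 16248 genes, and the FPKM formula, the annotation and the use of strand in counting are not given in the sources used here. FPKM values moved in steps of whole reads (within 0.05 reads) for 16247 genes (99.99%), and library totals of 9184556 to 12200414 reads were recovered this way. Gene models were GENCODE M21, with promoters from RefSeq.

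Genes with at least 1 FPKM in at least 3 libraries (13983) were fitted with limma 3.58.1 in R 4.3.3 on log2(FPKM + 1) over all 18 libraries, with the trend option, for 12 comparisons, and adjusted by Benjamini-Hochberg. A gene was past the test at an adjusted p under 0.05, two-sided. The fit was tested on simulated data. Alternatives were other pseudocounts, filters and scalings, voom on the recovered reads, the compared groups alone and a replicate block. Each library was also left out in turn, without a block. Leaving out both libraries rich in leukocyte markers together was chosen after seeing the data. Every Schlafen gene is named, with the first 4 genes of each list and those opposed to the rest, neighbors within 300 kb and the 3 most alike genes. Irf3, Zc3h12a, Btg2, Tob1, Bst2, Oas1a, Ifi44, Cd14 and Cd68 were chosen after their values were seen. A few genes that the rule would name are not reported here. Members and lists were chosen with earlier results of these data known.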

Additional observations from a re-analysis of the deposited data

Results flagged for a closer look

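In 3 results the effect of cGAMP differed between tissues by a test of the difference itself. The rise of Slfn4 in implanted ECs exceeded that in normal ECs by 1.99 and that in MMTV-PyMT ECs by 1.47 on log2(FPKM + 1), with limma adjusted p of 7.03e-05 and 0.00142. On recovered reads these differences were 1.18 and -0.12 and did not pass. The rise of Slfn5 in implanted ECs exceeded that in normal ECs by 1.68 (limma adjusted p = 0.000861), and by 1.72 on recovered reads with no filter (voom adjusted p = 0.000365). All 3 implanted cGAMP libraries were above all 3 normal cGAMP libraries in both genes. The share of all genes with this separation was not counted, and higher values there were past the test for 31.3% of genes. The Slfn5 level difference of 0.71 was 0.22 with scaling by total recovered reads (limma adjusted p = 0.315). With quantile normalization it was 0.13 (limma adjusted p = 0.593). Groups of 3 are too small for a check of single outlying libraries.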

How the results depend on the processing

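The rise of Slfn5, Slfn9 and Slfn4 with cGAMP kept its direction and passed the test in all 3 tissues under each alternative that held the gene, in 29 settings for Slfn4 and 30 for Slfn5 and Slfn9, the reported fit included. Requiring a mean of at least 5 FPKM removed Slfn4. Comparisons between tissues were less stable, and except where a setting removed a gene the cause was not tested.

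For the difference of effect between implanted and normal ECs, 2 genes passed, and 1 with a mean of at least 5 FPKM, with voom and with voom without a filter, and 3 with a pseudocount of 5, where Slfn9 joined. Between implanted and MMTV-PyMT ECs, 1 passed, against 0 with a pseudocount of 0.1, 0 with voom, 0 with voom without a filter, 2 with a pseudocount of 5 2 without implanted cGAMP replicate 2 and normal cGAMP replicate 1 together, and 1 to 2 when leaving out single libraries. Between MMTV-PyMT and normal ECs limma called 0 (1 at an unadjusted p under 0.05, and 0 adjusted by voom), against 0 to 2 when leaving out single libraries, with 2 without MMTV-PyMT cGAMP replicate 1. In implanted against MMTV-PyMT ECs under PBS, 1 passed, against 2 with a pseudocount of 0.1, quantile normalization, voom or voom without a filter, 3 with the compared groups alone, 0 with a pseudocount of 5 or a mean of at least 5 FPKM, 2 without the same 2 replicates together, and 1 to 2 when leaving out single libraries. In MMTV-PyMT against normal ECs, 1 gene passed under PBS and 2 with voom without a filter, and 1 passed under cGAMP and 2 with quantile normalization. Without MMTV-PyMT cGAMP replicate 1, 1 gene still passed under cGAMP, but it was Slfn4 (0.63) and no longer Slfn5 (-0.43).

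Signs reversed for Slfn4 in implanted minus MMTV-PyMT ECs (-0.12 with voom, with or without a filter) and in MMTV-PyMT against normal ECs under PBS (0.01 with quantile normalization). Slfn9 reversed in implanted minus normal ECs (-0.13 with quantile normalization). When single libraries were left out it ran from -0.37 to 0.04 for MMTV-PyMT minus normal ECs, and from -0.07 to 0.34 for MMTV-PyMT against normal ECs under cGAMP. Slfn3 reversed between the unfiltered limma fit and voom without a filter, to 1.41 for MMTV-PyMT minus normal ECs and to -0.67 for implanted minus MMTV-PyMT ECs. None of these reversed values passed the test.

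Among 45 pairs of libraries with the same replicate number, 8 had a correlation of their deviations over 0.1 (range -0.345 to 0.294). Pairs with unlike numbers were not compared, so whether same-numbered libraries deviate together was not tested. With the replicate block, 2 genes instead of 1 passed in implanted against MMTV-PyMT ECs under PBS, and Slfn9 there was 0.42 with a limma adjusted p of 0.0475. Under PBS, depth limits Slfn3 in all tissues and Slfn4 in normal and MMTV-PyMT ECs, with 3 to 26 reads a library.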
